A study of Mus musculus with 27 samples.

Results

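The proteasome is the barrel-shaped protease that degrades ubiquitin-tagged proteins in the cytosol and the nucleus. Rings of alpha subunits (*Psma* genes) close the ends of its 20S core, rings of beta subunits (*Psmb* genes) carry the cutting sites inside it, and the 19S cap (*Psmc* ATPases and *Psmd* subunits) binds ubiquitin chains, removes them and threads the substrate into the core. In skeletal muscle this machinery is known for the breakdown of myofibrillar proteins during wasting, and interferon exchanges its catalytic beta subunits for the immunoproteasome forms. The genes were chosen by name: every non-control probe whose gene name starts with *Psma* to *Psmg* followed by a number. Of 35527 gene names on the array, 49 match, and 1 of them (*Psmc3ip*) is not a subunit and was set apart, which left 48 proteasome genes with 60 probes among 55681.

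Single myofibers of the tibialis anterior, the muscle at the front of the shin, were freed with collagenase and hybridized 1 to an array, 27 arrays in all. WT stands for 8 myofibers of 2 control littermates, Smn1deltaSKM for 12 myofibers of 3 mice whose floxed *Smn1* was deleted by Cre under the human alpha-skeletal actin promoter, and Smn1deltaSKM+AFS for 7 myofibers of 2 mice of the same knockout that had received GFP-positive amniotic fluid stem (AFS) cells by the tail vein. The labels give every mouse as male and 3 months old. The methods state that the cells were given at that age and the fibers taken a month later, so the treated mice may have been older than the others, and then age and treatment cannot be told apart. The text of the paper also counts the treated fibers and mice differently from the labels, which were followed here. Since this promoter drives the Cre in skeletal muscle fibers, other cells of the knockout muscle keep *Smn1*. The myofibers came 4 to a mouse, except 3 in 1 Smn1deltaSKM+AFS mouse, and the mouse was taken as the replicate. A level here is the log2 of the background-corrected spot brightness minus the 75th percentile of its array, so 0 is that percentile, 1 unit is a doubling, and levels of different probes cannot be set against each other. Genes were called where the adjusted p lay under 0.05 (limma on mouse means, Benjamini-Hochberg over all 16648 genes tested).

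Of the 48 genes, 45 passed the filter of a usable value on at least 75% of the arrays. The 3 others were *Psma8*, the testis alpha subunit, with a usable value on no array, *Psmb11*, the thymus catalytic subunit, with a value on 1 Smn1deltaSKM array, and *Psmb8*, an immunoproteasome subunit described below. No proteasome probe was saturated on any array. Between 23183 and 37595 probes were usable on a Smn1deltaSKM array, between 25887 and 30498 on a Smn1deltaSKM+AFS array and between 23871 and 34012 on a WT array. The number of mice limits the precision. WT myofiber 8 stood apart, with the 34012 usable probes against at most 27329 on the other WT arrays. The WT arrays shared 1 slide and a scan day on which no other group was scanned, so genotype, slide and scan day cannot be told apart. The *Smn1* probe with a genotype difference lay at 1.86 and 1.84 in the WT mice and at -0.07, 0.20 and 0.36 in the Smn1deltaSKM mice (difference -1.68, limma, adjusted p = 0.0201). The other *Smn1* probe differed by 0.19 (limma, adjusted p = 0.715), and where the probes lie relative to the deleted part was not established. The myofiber markers were bright and usable on all arrays, except *Ckm* and *Tnnc2*, each usable on 7 of 8 WT arrays. Markers of other cells were detected unevenly. Of the satellite cell markers, *Pax7* was usable on 1 array of each group and *Chrdl2* on none. *Myf5* was usable on 7 of 8 WT, 11 of 12 Smn1deltaSKM and 7 of 7 Smn1deltaSKM+AFS arrays. With the measured signal of all spots kept, its mean level was -4.35, -5.03 and -4.79 in these groups, beside -4.35, -5.23 and -4.75 for *Chrdl2*. The usable values of *Myf5* therefore do not show that satellite cell RNA was present. Of the fibroblast markers, *Pdgfra* was usable on 1 array in all, while *Col3a1* was usable on 6 of 8, 11 of 12 and 6 of 7 arrays of these groups, *Col1a1* on 2, 9 and 5, and *Dcn* on 1, 12 and 5.

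The promoters shown are those of 4 genes described below. *Psmd1*, *Psma7* and *Psmd8* were called lower than in WT in both knockout groups, and *Psmb9*, an interferon-inducible subunit, was called in neither. The 300 bases around the start site of each are shown. They run 5′ to 3′ on the gene's strand from 250 bases before to 50 bases after the start, in RefSeq's GRCm38.p6 annotation (not the build of the array's own annotation), with matches of the searched motifs in capitals. *Psmd1* lies at chr1:86064369-86064668 on the plus strand, *Psma7* at chr2:180042415-180042714, *Psmd8* at chr7:29180624-29180923 and *Psmb9* at chr17:34187281-34187580, these 3 on the minus strand.
Psmd1: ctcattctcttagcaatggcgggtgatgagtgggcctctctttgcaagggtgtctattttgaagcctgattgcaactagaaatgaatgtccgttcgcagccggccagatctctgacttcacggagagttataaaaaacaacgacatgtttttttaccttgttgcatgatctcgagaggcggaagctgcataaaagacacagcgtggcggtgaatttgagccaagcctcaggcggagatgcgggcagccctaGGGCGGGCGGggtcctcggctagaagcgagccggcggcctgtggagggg
Psma7: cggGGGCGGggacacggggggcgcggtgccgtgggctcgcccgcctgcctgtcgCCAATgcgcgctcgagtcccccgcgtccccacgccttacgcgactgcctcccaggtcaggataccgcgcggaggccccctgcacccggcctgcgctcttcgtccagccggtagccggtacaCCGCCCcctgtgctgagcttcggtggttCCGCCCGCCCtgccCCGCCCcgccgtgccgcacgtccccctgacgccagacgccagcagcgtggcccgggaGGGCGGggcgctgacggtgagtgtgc
Psmd8: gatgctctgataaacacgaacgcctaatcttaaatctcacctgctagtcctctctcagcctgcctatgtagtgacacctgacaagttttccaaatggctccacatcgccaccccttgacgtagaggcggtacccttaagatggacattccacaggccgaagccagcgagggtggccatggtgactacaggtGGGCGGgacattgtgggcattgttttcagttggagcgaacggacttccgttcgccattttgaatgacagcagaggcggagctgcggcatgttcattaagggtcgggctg
Psmb9: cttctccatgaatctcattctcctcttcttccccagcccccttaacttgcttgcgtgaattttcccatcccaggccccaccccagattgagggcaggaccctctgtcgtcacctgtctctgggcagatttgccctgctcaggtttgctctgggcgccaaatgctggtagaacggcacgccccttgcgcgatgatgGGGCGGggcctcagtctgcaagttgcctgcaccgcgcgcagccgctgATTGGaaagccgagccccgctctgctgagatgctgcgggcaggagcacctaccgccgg

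RefSeq promoters were found for 40 of the 48 genes, in 43 windows. The searched motifs, on both strands, were GGGCGG (the GC box), CCAAT, TGACNNNGC (the core of the antioxidant response element, which NRF1 and NRF2 bind) and GAAANNGAA (the core of the interferon response element). GGGCGG stood in 55.8% of the proteasome windows and in 35.7% of all 32851 windows. CCAAT stood in 32.6% against 37.4%, TGACNNNGC in 14% against 12.4% and GAAANNGAA in 16.3% against 8.56%. Of the 4 promoters printed, *Psmd1* holds GGGCGG at 2 and 6 bases after the start in overlapping copies, *Psma7* holds 6 copies of GGGCGG and 1 CCAAT, *Psmd8* holds 1 GGGCGG, and *Psmb9* holds 1 GGGCGG and 1 CCAAT on the opposite strand. Neither response element core matched in these 4 windows, which says only that these letters are not in them.

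Proteasome genes were mostly lower in Smn1deltaSKM than in WT myofibers. The difference was below 0 for 41 of the 45 genes and 6 were called, all lower: *Psmd1*, *Psma7*, *Psmd4*, *Psmd8*, *Psmf1* and *Psmg2*. The median log2 difference over the 45 genes was -0.52, beside -0.11 over all genes tested. Over all genes 22.0% were called and 13.9% were called lower, so the 6 of 45 called lower are close to the share of all genes. In 28 of the 45, every Smn1deltaSKM mouse lay below both WT mice, against 33.2% of all genes, and in 1, *Psma6*, every Smn1deltaSKM mouse lay above, against 22.4% of all genes. The scaling of the arrays decided the sign and the calls: quantile normalization moved the median of all genes to 0.35 and that of the proteasome genes to 0.00, with 0 called, while their distance below the median of all genes was 0.35, compared with 0.41 in the scaling used here. That distance was 0.19 after normexp background correction with quantile normalization and 0.23 with the authors' value table. With only probes usable on every array, which left 41 proteasome genes, it was 0.28, and the median of all genes was then -0.24. Of all called genes, 1339 were higher and 2317 lower here, and 735 were higher and 126 lower after quantile normalization.

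**Figure D1:**
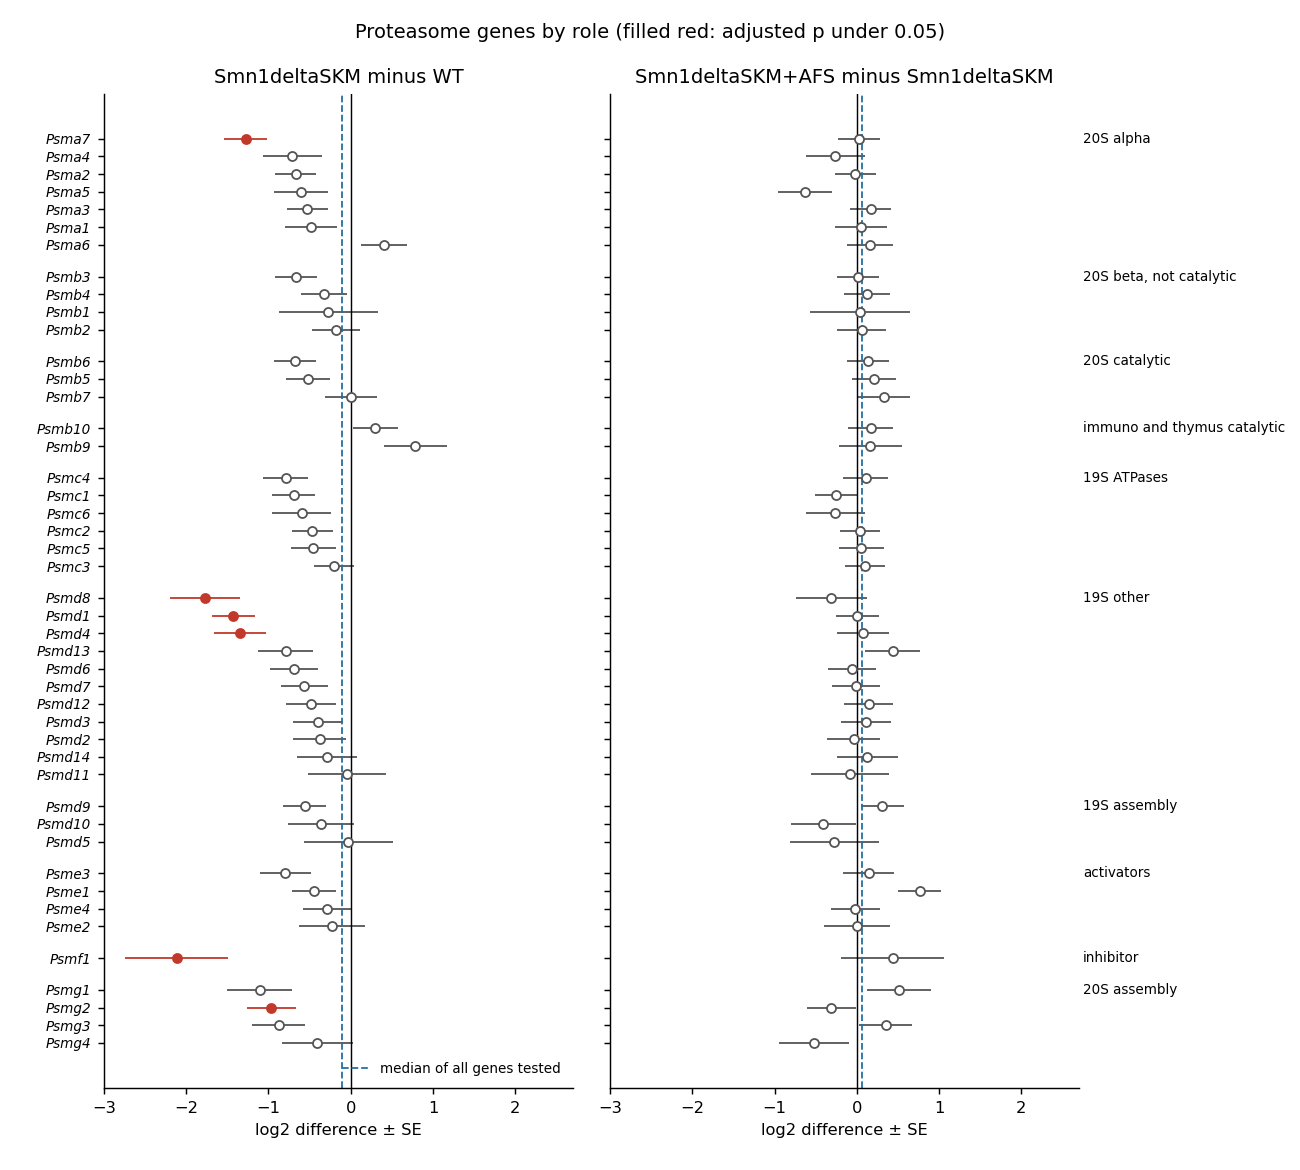
Log2 difference (horizontal axis, bars are the standard error of limma) of the 45 proteasome genes tested, grouped by role, for Smn1deltaSKM minus WT (left, 3 and 2 mice) and Smn1deltaSKM+AFS minus Smn1deltaSKM (right, 2 and 3 mice). Filled red points are the 6 genes called at an adjusted p under 0.05, dashed blue lines are the medians of all genes, -0.11 and 0.06. On the left 41 of the points lie below 0, and on the right the points lie around 0 with none called.

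*Psmd1*, a large scaffold subunit of the 19S base, had the lowest adjusted p. Its level was 3.75 and 3.47 in the WT mice, 2.21, 1.98 and 2.38 in the Smn1deltaSKM mice and 2.17 and 2.22 in the Smn1deltaSKM+AFS mice. By myofiber it ran from 3.20 over a median of 3.55 to 4.28 in WT, from 1.42 over 2.24 to 2.78 in Smn1deltaSKM and from 1.54 over 2.27 to 2.54 in Smn1deltaSKM+AFS. No knockout myofiber reached the lowest WT myofiber. The Smn1deltaSKM minus WT difference was -1.43 ± 0.26 (SE, limma, adjusted p = 0.0135), a level 2.69-fold lower.

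*Psma7*, a subunit of the outer ring, lay at 5.23 and 5.10 in the WT mice, at 3.79, 3.74 and 4.12 in the Smn1deltaSKM mice and at 3.90 and 3.92 in the Smn1deltaSKM+AFS mice. The mice of the genotypes did not overlap, while the highest Smn1deltaSKM myofiber, at 4.65, passed the lowest WT myofiber, at 4.58. The difference from WT was -1.28 ± 0.26 (SE, limma, adjusted p = 0.0163), or 2.42-fold lower.

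Among the 19S lid and receptor subunits, *Psmd8* had the largest difference. *Psmd8* lay at 5.12 and 4.78 in the WT mice, at 2.46, 3.39 and 3.68 in the Smn1deltaSKM mice and at 3.32 and 2.41 in the Smn1deltaSKM+AFS mice. All knockout myofibers, the highest at 4.40, were below the lowest WT myofiber, at 4.54. The difference was -1.77 ± 0.43 (SE, limma, adjusted p = 0.0258), 3.42-fold lower. *Psmd4*, the ubiquitin receptor also known as Rpn10, lay at 5.80 and 6.01 in WT, at 4.29, 4.31 and 5.07 in Smn1deltaSKM and at 4.60 and 4.65 in Smn1deltaSKM+AFS. The mice did not overlap, and the myofibers did, between 5.06 and 5.38. The Smn1deltaSKM minus WT difference of *Psmd4* was -1.35 ± 0.31 (SE, limma, adjusted p = 0.0236), 2.55-fold lower.

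*Psmf1*, which encodes the proteasome inhibitor PI31, and *Psmg2*, a chaperone of alpha ring assembly, completed the called genes. *Psmf1* lay at 0.90 and 0.45 in the WT mice, at -0.15, -2.17 and -1.999 in the Smn1deltaSKM mice and at -0.39 and -1.63 in the Smn1deltaSKM+AFS mice. The myofibers overlapped, the highest knockout myofibers being at 0.54 and 0.55 and the lowest WT myofiber at 0.21. The knockout levels divided by scan day. Smn1deltaSKM mouse 1 lay at 0.06, 0.54 and 0.015 in its myofibers of scan day 1 and at -1.23 in that of scan day 2. The Smn1deltaSKM+AFS myofibers of scan day 1 lay at 0.13 and 0.55. Every knockout myofiber of scan day 2 lay at -1.07 or lower. The part of the scan day in the level of *Psmf1* was not tested. The Smn1deltaSKM minus WT difference of *Psmf1* was -2.12 ± 0.63 (SE, limma, adjusted p = 0.0454), 4.34-fold lower. *Psmg2* lay at 2.08 and 1.32 in WT, at 0.75, 0.76 and 0.70 in Smn1deltaSKM and at 0.37 and 0.48 in Smn1deltaSKM+AFS, and the difference was -0.96 ± 0.29 (SE, limma, adjusted p = 0.0486), 1.95-fold lower. The mice did not overlap for *Psmg2*, but the myofibers did: WT began at 0.49 and Smn1deltaSKM reached 1.16.

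**Figure D2:**
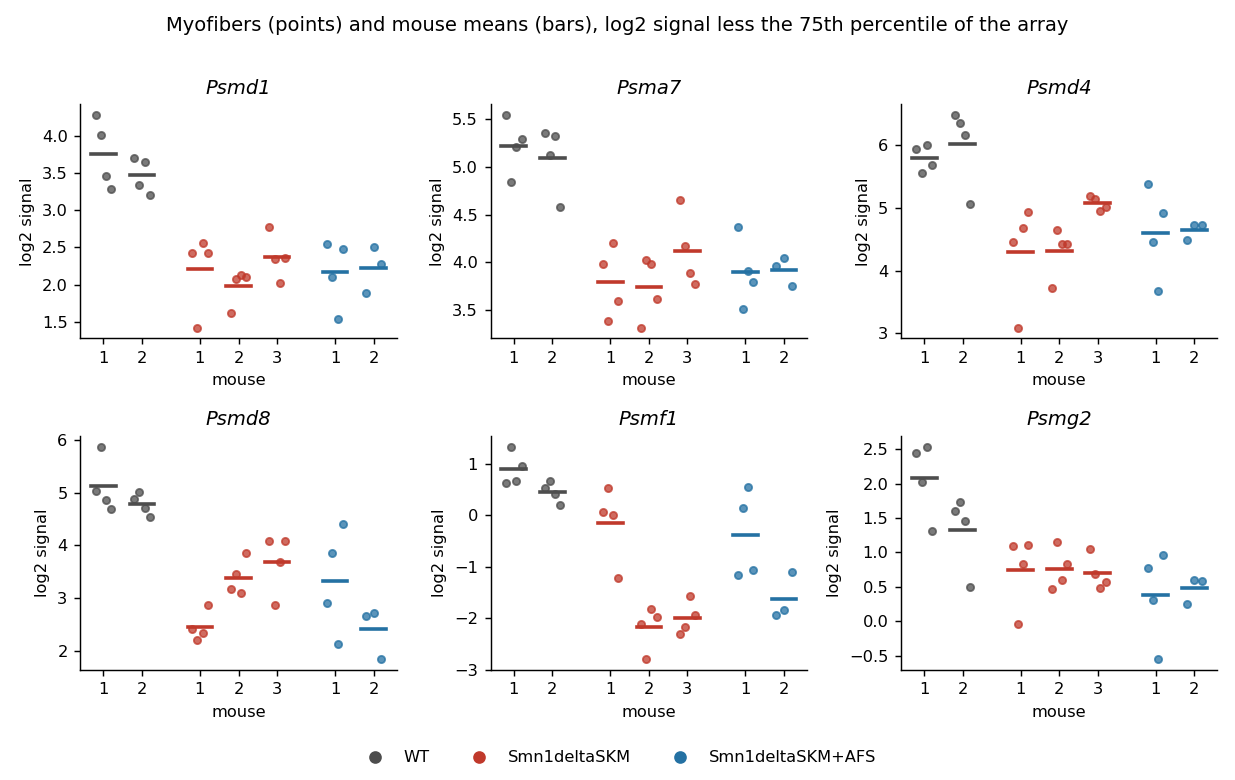
Level (vertical axis, log2 of processed signal minus the 75th percentile of the array) of the 6 called genes in each myofiber (points) with the mean of each mouse (bars), for WT (grey), Smn1deltaSKM (red) and Smn1deltaSKM+AFS (blue). For *Psmd1* and *Psmd8* all knockout myofibers lie below the WT myofibers; for the other 4 genes single myofibers overlap.

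The 6 called genes kept a difference below 0 under each of 22 other settings of the analysis. *Psmd1* was called under 18 of them, *Psma7* and *Psmd8* under 16, *Psmd4* under 15, *Psmf1* under 10 and *Psmg2* under 7. Without WT mouse 1 none of the 45 was called and none of all genes (limma), and without WT mouse 2 none of the 45 and 4 of all genes. Without Smn1deltaSKM mouse 2 1 of the 45 was called (2.22%), against 8.28% of all genes. Without Smn1deltaSKM mouse 1 20 were (44.4%), the 6 among them, against 43.5% of all genes. Without WT myofiber 8 the count was 11 (24.4%, against 26.5% of all genes), adding *Psma2*, *Psmb6*, *Psmc4*, *Psmd6* and *Psmg3* to the 6.

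By role, the differences from WT leaned the same way in nearly all parts of the particle. In the alpha ring 6 of the 7 tested genes were below 0 (median -0.61), from *Psma7* up to *Psma6* at 0.40 ± 0.28 (SE, limma, adjusted p = 0.309). *Psma6* lay at 4.54 and 4.51 in the WT mice and at 5.26, 4.67 and 4.86 in the Smn1deltaSKM mice. All 4 beta subunits without a cutting site were below 0, from -0.67 to -0.18, and none was called. The lowest was *Psmb3*, at 5.99 and 6.06 in WT and at 5.47, 5.17 and 5.42 in Smn1deltaSKM (-0.67 ± 0.25, SE, limma, adjusted p = 0.0894).

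All 6 ATPases of the 19S base, the motor that unfolds substrates, lay between -0.79 and -0.20 without a call. *Psmc4* was the lowest of them, at 4.10 and 3.91 in the WT mice and at 3.33, 2.94 and 3.38 in the Smn1deltaSKM mice (-0.79 ± 0.28, SE, limma, adjusted p = 0.0726). The other 19S subunits were all below 0 (11 of 11, median -0.56, 3 called), as were the 3 chaperones that help to assemble the base, from -0.56 to -0.03. *Psmd9* was the lowest of these chaperones (-0.56 ± 0.26, SE, limma, adjusted p = 0.145), and its difference was 0.20 after normexp background correction with quantile normalization.

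The alternative caps and the assembly factors of the core lay on the same side. The 4 activators ran from -0.80 to -0.23, and *Psme3*, the nuclear activator PA28 gamma, was the lowest. *Psme3* lay at 6.73 and 6.85 in the WT mice and at 6.46, 5.66 and 5.85 in the Smn1deltaSKM mice (-0.80 ± 0.31, SE, limma, adjusted p = 0.0956). Its knockout myofibers of scan day 1 lay between 6.49 and 6.90 and those of scan day 2 between 5.53 and 6.15. The part of the scan day in its level was not tested. The 4 core assembly chaperones ran from -1.10 to -0.40 with a median of -0.92, and *Psmg2* was the 1 called. *Psmg1*, the partner of *Psmg2*, lay at 1.46 and 1.81 in the WT mice and at -0.17, 0.98 and 0.78 in the Smn1deltaSKM mice (-1.10 ± 0.39, SE, limma, adjusted p = 0.0762).

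The constitutive catalytic subunits were not called. *Psmb5*, with the chymotrypsin-like site, lay at 6.25 and 6.33 in WT, at 5.95, 5.45 and 5.92 in Smn1deltaSKM and at 5.98 in both Smn1deltaSKM+AFS mice, a Smn1deltaSKM minus WT difference of -0.52 ± 0.27 (SE, limma, adjusted p = 0.186). *Psmb6*, with the caspase-like site, lay at 6.06 and 5.90 in WT, at 5.42, 5.13 and 5.37 in Smn1deltaSKM and at 5.54 and 5.33 in Smn1deltaSKM+AFS (-0.68 ± 0.25, SE, limma, adjusted p = 0.0870). For both, every knockout mouse lay below both WT mice, but the difference of *Psmb5* was 0.00 after quantile normalization. *Psmb7*, with the trypsin-like site, overlapped between the groups, at 5.84 and 5.11 in WT, 5.80, 5.31 and 5.32 in Smn1deltaSKM and 5.92 and 5.69 in Smn1deltaSKM+AFS (0.00, limma, adjusted p = 0.994).

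Of the 4 immunoproteasome and thymus subunits only *Psmb9* and *Psmb10* were tested, and neither difference was below 0. *Psmb9*, which replaces *Psmb6*, lay at -0.92 and -0.46 in the WT mice, at -0.57, 0.18 and 0.68 in the Smn1deltaSKM mice and at 0.35 and 0.17 in the Smn1deltaSKM+AFS mice. The Smn1deltaSKM minus WT difference was 0.79 ± 0.39 (SE, limma, adjusted p = 0.165), and Smn1deltaSKM mouse 1 lay between the WT mice. *Psmb9* was usable on 5 of 8 WT, 12 of 12 Smn1deltaSKM and 6 of 7 Smn1deltaSKM+AFS arrays, so it passed the filter through the knockout arrays. *Psmb10*, which replaces *Psmb7*, lay at 2.24 and 1.84 in WT, at 2.56, 2.25 and 2.21 in Smn1deltaSKM and at 2.35 and 2.66 in Smn1deltaSKM+AFS (0.30 ± 0.28, SE, limma, adjusted p = 0.444).

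*Psmb8*, which replaces *Psmb5*, was well above background on 2 of 8 WT arrays, both of mouse 2, but on 11 of 12 Smn1deltaSKM and 6 of 7 Smn1deltaSKM+AFS arrays. It was therefore not tested. Where it was usable, it lay at -1.05 in WT mouse 2, at -2.12, -1.99 and -2.24 in the Smn1deltaSKM mice and at -1.33 and -2.25 in the Smn1deltaSKM+AFS mice. The WT value rests on the arrays on which the probe was measured at all. With the measured signal of all arrays kept, the Smn1deltaSKM minus WT difference of *Psmb8* relative to *Psmb5* was 1.51, and with the usable values it was -0.92, so its direction was not settled.

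**Figure D3:**
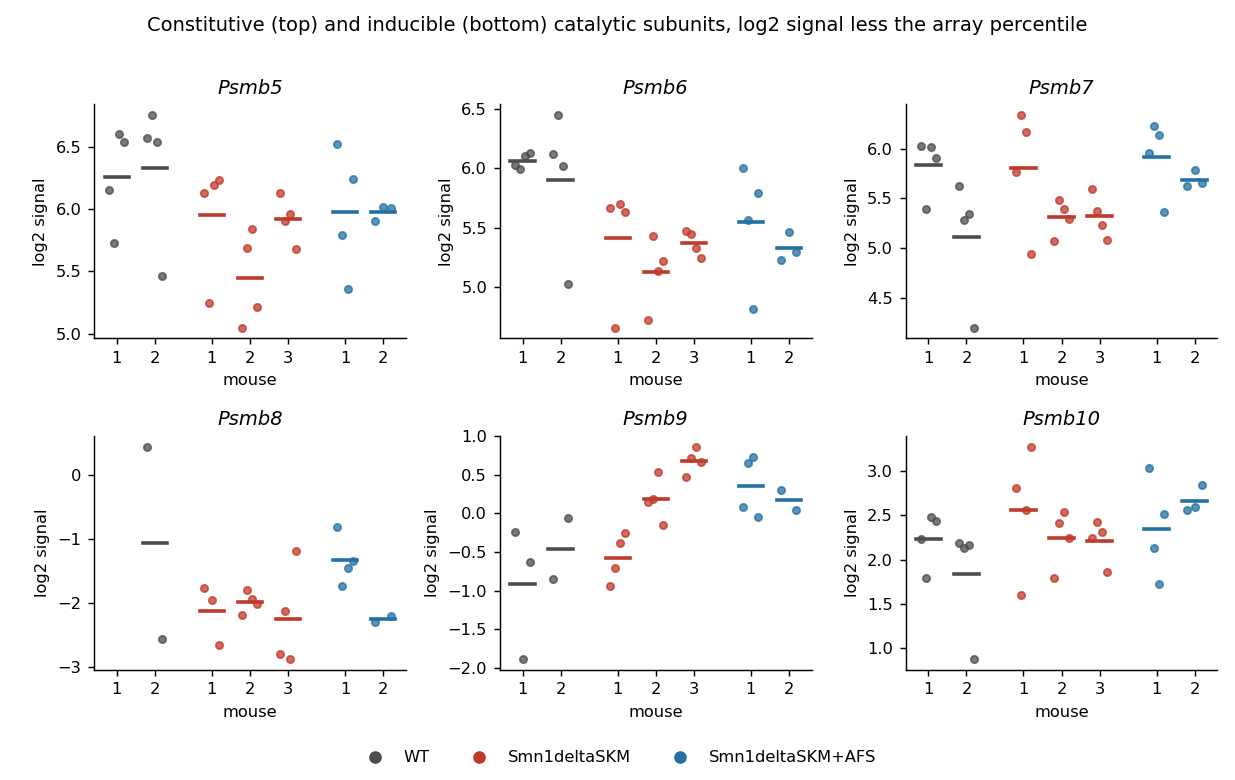
Level (vertical axis, log2 of processed signal minus the 75th percentile of the array) of the constitutive catalytic subunits (top: *Psmb5*, *Psmb6*, *Psmb7*) and of the immunoproteasome subunit that replaces each (bottom: *Psmb8*, *Psmb9*, *Psmb10*) in each myofiber with a usable value (points) and the mean of each mouse (bars). *Psmb6* lies lower in the knockout mice while *Psmb9* lies mostly higher, and *Psmb8* has usable values in 2 WT myofibers.

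The exchange within a pair was measured as the difference of both probes on the same array, which subtracting a constant from the array does not move. *Psmb9* minus *Psmb6* was -6.96 and -6.69 in the WT mice, -5.99, -4.95 and -4.69 in the Smn1deltaSKM mice and -5.19 and -5.10 in the Smn1deltaSKM+AFS mice. These WT values rest on the 5 of 8 arrays on which *Psmb9* was usable, beside 12 Smn1deltaSKM and 6 Smn1deltaSKM+AFS arrays. The values of the pair were higher in each knockout mouse than in both WT mice, by 1.62 on average in Smn1deltaSKM (exact two-sided permutation test, p = 0.2, where 0.1 is the smallest p possible, adjusted p = 0.7 over the 7 pair tests). The difference was 1.55 after quantile normalization and 1.11 with the authors' value table. Keeping every measured spot, on all 8 WT arrays, gave 1.51, and the WT mice then lay at -7.11 and -6.33. How often other pairs of genes separate the mice in this way was not tested. In Smn1deltaSKM+AFS the excess over WT was 1.68 (exact permutation test, p = 0.333, the smallest possible for 2 mice against 2, adjusted p = 0.778). *Psmb10* minus *Psmb7* lay above both WT values of -3.60 and -3.27 in the Smn1deltaSKM mice, at -3.24, -3.06 and -3.11, a difference of 0.30 (exact permutation test, p = 0.1, the smallest possible, adjusted p = 0.7). This separation was lost after quantile normalization, where Smn1deltaSKM mouse 1 lay at -3.37 and WT mouse 2 at -3.23 (difference 0.29, exact permutation test, p = 0.3), and with the authors' value table (difference 0.15, exact permutation test, p = 0.4). In Smn1deltaSKM+AFS this pair lay at -3.57 and -3.03. No pair test passed the threshold, and with these numbers of mice none could.

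Some markers of other cells differed between the genotypes beside these subunits. In bulk RNA of a myofiber with what clings to it, fewer cells of a type and less RNA per cell cannot be told apart. Of the 4 tested of 5 macrophage and leukocyte markers, 2 were higher in Smn1deltaSKM than in WT: *Ptprc*, the leukocyte surface protein CD45, by 1.33 and *Cd68*, of macrophage lysosomes, by 3.00 (limma, adjusted p = 0.0213 and 0.0368). *Csf1r*, a macrophage receptor, differed by -0.50 (limma, adjusted p = 0.163). *Cd74* differed by 0.67 (limma, adjusted p = 0.300), usable on 2 of 8 WT and 12 of 12 Smn1deltaSKM arrays. *Emr1*, usable on 2 of 8 and 8 of 12, was not tested. The summed level of the 5 markers overlapped between the groups. It ran from 4.46 over a median of 4.74 to 5.13 in WT and from 4.30 over 4.60 to 5.08 in Smn1deltaSKM. In Smn1deltaSKM+AFS it ran from 4.17 over 4.65 to 5.27. That sum follows *Csf1r*, the brightest probe, at a mean of 4.70 in WT, where each other marker lay at -1.18 or lower. It does not show how the other markers differed. None of the tested satellite cell (1 of 3), fibroblast (1 of 4), endothelial (1 of 4), smooth muscle (2 of 2) or lymphocyte (1 of 3) markers was called. The fibroblast marker *Dcn*, usable on 1 of 8 WT and 12 of 12 Smn1deltaSKM arrays, was not tested. With all spots kept, its mean level was -2.75 in WT and 1.04 in Smn1deltaSKM. The untested *Col1a1* lay at -3.115 and -1.488, and the untested *Pdgfra* at -4.831 and -5.145. The absence of calls does not show that the untested markers were alike. Of the 8 myofiber markers, 4 were lower in Smn1deltaSKM (*Ckm*, *Mylpf*, *Actn3* and *Ryr1*, by -1.14 to -1.99) and none higher, and their summed level ran from 10.97 to 11.79 in WT, from 10.49 to 11.18 in Smn1deltaSKM and from 10.92 to 11.42 in Smn1deltaSKM+AFS. Of the 3 tested fiber type markers, *Myh1*, the fast IIx myosin heavy chain, was higher than in WT by 2.20 in Smn1deltaSKM (limma, adjusted p = 0.0224) and by 3.45 in Smn1deltaSKM+AFS (limma, adjusted p = 0.0183), and it was called under all 4 other scalings. Of the other markers called in Smn1deltaSKM, *Mylpf* was called under 3 of these scalings, *Ryr1*, *Ptprc* and *Cd68* under 2, *Ckm* under 1 and *Actn3* under 0. The part of these cells and of the fiber type in the levels of the proteasome genes was not tested.

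The AFS comparison asked whether the transplanted knockout differs from the untreated knockout, and no proteasome gene was called. None of the 16648 genes was called at an adjusted p under 0.05 with limma (percent called 0), and 532 of them, or 3.20%, had an unadjusted p under 0.05. With myofibers in place of mice as replicates, 20 genes were called over the array and 0 of them were proteasome genes. Of the 45 proteasome genes, 1 had an unadjusted p under 0.05, 15 were below 0 and the median difference was 0.05, beside 0.06 over all genes. That gene was *Psme1*, which encodes PA28 alpha of the interferon-inducible activator, at 1.84, 1.75 and 1.48 in the Smn1deltaSKM mice and at 2.30 and 2.61 in the Smn1deltaSKM+AFS mice. It lay at 2.25 and 2.02 in the WT mice, so both treated mice were above all others. The difference was 0.76 ± 0.27 (SE, limma, unadjusted p = 0.0202, adjusted p = 1.00). The lowest fitted difference was that of *Psma5*, an alpha subunit, at -0.63 ± 0.33 (SE, limma, adjusted p = 1.00), where Smn1deltaSKM myofiber 1 stood apart at 6.48 and no other Smn1deltaSKM myofiber exceeded 3.51. The median of the proteasome genes turned to -0.22 after quantile normalization, where all genes lay at -0.15, and to -0.23 after normexp background correction with quantile normalization, where all genes lay at -0.12. On scan day 1, which held 3 Smn1deltaSKM myofibers and 2 Smn1deltaSKM+AFS myofibers, each from mouse 1 of its group and so 1 mouse against 1, the median was -0.31 beside 0.21 over all genes, and on scan day 2 it was 0.14 beside 0.06.

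Set against WT, the Smn1deltaSKM+AFS myofibers had 4 called proteasome genes, all lower: *Psmd1*, *Psma7*, *Psmd8* and *Psmg2*. This comparison uses the same WT mice as that of the untreated knockout, so the values are given side by side and not as a further observation. Below 0 were 40 of the 45, with a median of -0.43 beside -0.04 over all genes. Over all genes 7.77% were called and 4.30% were called lower. In 30 of the 45 both treated mice lay below both WT mice, against 36.0% of all genes.

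The size of these differences was near that in the untreated knockout for *Psmd1* (-1.42, limma, adjusted p = 0.0312, against -1.43) and *Psma7* (-1.25, limma, adjusted p = 0.0401, against -1.28). *Psmd8* was at -2.09 (limma, adjusted p = 0.0405), 4.24-fold lower than WT. *Psmg2* was at -1.27 (limma, adjusted p = 0.0497), 2.42-fold lower. *Psmd4* at -1.28 (limma, adjusted p = 0.0584) and *Psmf1* at -1.68 (limma, adjusted p = 0.147) were not called. The adjusted p of all 4 called genes lay close to the threshold, and without each single mouse in turn 0 of the 45 were called, except without Smn1deltaSKM mouse 1, where 13 were (28.9%, against 29.2% of all genes).

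The array carries several probes for some of the genes, and 57 of the 60 were tested on their own. Against WT, 6 were called lower in Smn1deltaSKM, where 14.1% of all 22169 probes were, and 3 in Smn1deltaSKM+AFS, where 4.34% were. In Smn1deltaSKM these were the probes of *Psma7*, *Psmd1*, *Psmd4*, *Psmd8* and *Psmf1* and another probe of *Psmg1* (-1.39, limma, adjusted p = 0.0239), whose brighter probe stood at -1.10 (limma, adjusted p = 0.0778). Of the 57 probes, 51 were below 0. Probes of 1 gene disagreed for *Psmc1*, an ATPase (-0.69 and 0.75), and for *Psme2*, the PA28 beta subunit (-0.23, -0.36 and 0.11), so the direction of these genes depends on the probe. *Psmd12*, a lid subunit, had differences of -0.48 and -1.34, neither called.

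**Figure D4:**
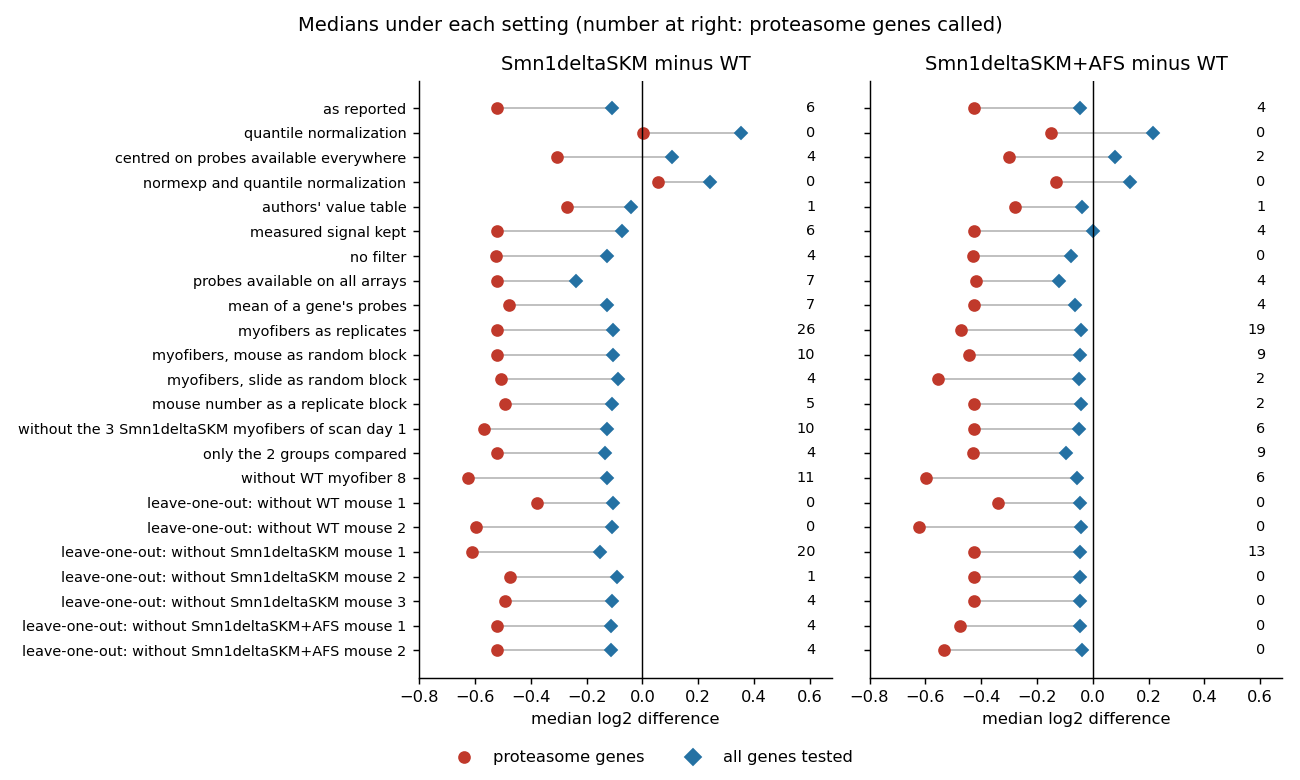
Median log2 difference from WT (horizontal axis) of the 45 proteasome genes and of all genes tested under each setting of the analysis (vertical axis), for Smn1deltaSKM (left) and Smn1deltaSKM+AFS (right), with the number of proteasome genes called at the right edge. The proteasome median lies below that of all genes under every setting shown, while quantile normalization shifts both upward and leaves 0 called.

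Over single myofibers, the mean level of the 39 proteasome genes usable on every array ran from 3.93 to 4.32 in the WT myofibers other than myofiber 8, and from 2.84 to 3.87 in Smn1deltaSKM and 3.20 to 3.74 in Smn1deltaSKM+AFS. WT myofiber 8 lay at 3.19, inside the range of the knockout. Without it the median difference from WT was -0.62 in Smn1deltaSKM and -0.60 in Smn1deltaSKM+AFS. Smn1deltaSKM myofiber 5 combined the lowest mean, 2.84, with the most usable probes, 37595. Relative to the mean of all genes on the same array, the proteasome genes ran from 1.14 to 2.04 in WT, from 0.98 to 1.70 in Smn1deltaSKM and from 1.02 to 1.46 in Smn1deltaSKM+AFS. The part that the number of usable probes has in these levels was not tested.

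**Figure D5:**
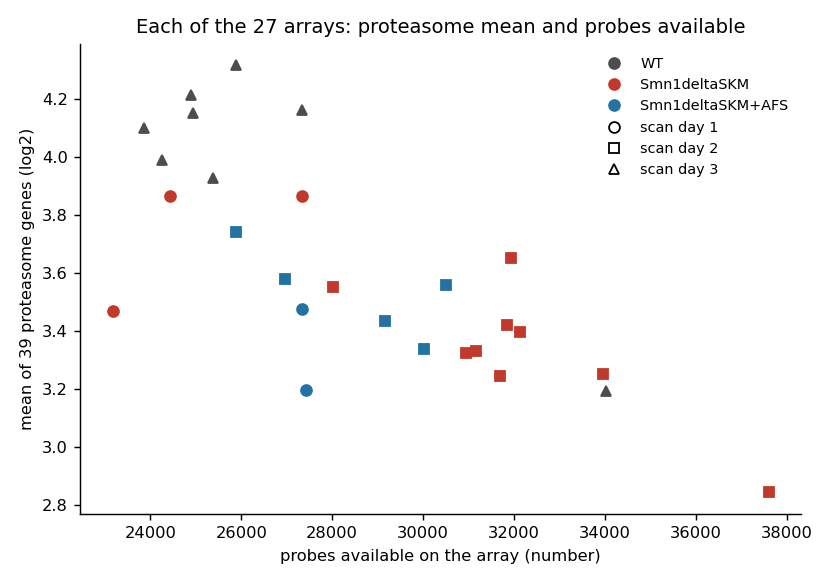
Mean level of the 39 proteasome genes usable on every array (vertical axis, log2 of processed signal minus the 75th percentile) against the number of usable probes (horizontal axis) for the 27 arrays, coloured by group with a marker for the scan day. WT myofiber 8, at 3.19 with 34012 probes, lies apart from the other WT arrays, and the lowest array, Smn1deltaSKM myofiber 5, has the most usable probes.

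Within mice, proteasome genes went up and down together from myofiber to myofiber. Over the deviations of the 27 myofibers from their mouse means, the median Pearson r between proteasome genes was 0.35, and that between a proteasome gene and another gene was 0.12 (39 proteasome genes and 10103 others). These points share library, amplification and scaling, and after quantile normalization the values were 0.21 and 0.14. The genes most like the rest were *Psmc2*, a 19S ATPase (median r 0.69), *Psmb3* (0.68) and *Psmb5* (0.66). Those least like the rest were *Psme3* (-0.39), *Psmf1* (-0.32) and *Psmd11*, a lid subunit (-0.16). Smn1deltaSKM mouse 1 and Smn1deltaSKM+AFS mouse 1 hold myofibers of scan day 1 and scan day 2, so the scan day stays in these deviations. In both mice *Psme3*, *Psmf1* and *Psmd11* were higher on every scan day 1 array than on the scan day 2 arrays. The part of the scan day in these values of r was not tested. Of the called genes, *Psmd8* followed the rest little (0.10), and *Psmd4* (0.59) and *Psma7* (0.52) more.

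Genes that make, supply or control the proteasome were taken from a list of 32 symbols, of which 28 were on the array and 23 were tested. Against WT, 6 were lower and 1 was higher in Smn1deltaSKM, with 19 of the 23 below 0 and a median of -0.70. Over all genes 22.0% were called and 13.9% were called lower, with a median of -0.11. *Ubb*, a polyubiquitin gene, was lower by -0.90 (limma, adjusted p = 0.0479), at 8.45 and 8.33 in the WT mice and at 7.67, 7.28 and 7.53 in the Smn1deltaSKM mice. *Uba1*, the enzyme that activates ubiquitin, was lower by -1.35 (limma, adjusted p = 0.0149), and *Fbxo7*, a ubiquitin ligase subunit that binds PI31, by -1.45 (limma, adjusted p = 0.0170).

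A further pair from the list sits on the 19S cap: *Adrm1*, the ubiquitin receptor Rpn13, was lower by -1.17 (limma, adjusted p = 0.0213), and *Uchl5*, the deubiquitinase that Rpn13 holds, by -1.29 (limma, adjusted p = 0.0259). *Ddi2*, the protease that cleaves and so activates NRF1, the factor that induces proteasome genes, had the largest difference, at 2.90 and 2.55 in the WT mice and at -0.09, 0.03 and 0.51 in the Smn1deltaSKM mice (-2.58, limma, adjusted p = 0.00632). *Nfe2l1*, which encodes NRF1, was not called (limma, adjusted p = 0.773), and *Nfe2l2*, which encodes NRF2 of the oxidative stress response, was the 1 higher gene, by 1.64 (limma, adjusted p = 0.0243). The directions of these 7 genes held under all 4 other scalings, but *Ddi2* was called under all 4 of them, *Nfe2l2*, *Fbxo7* and *Uba1* under 2, *Adrm1* and *Uchl5* under 1 and *Ubb* under 0.

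In Smn1deltaSKM+AFS against the untreated knockout none of the 23 was called, and the median was 0.17, beside 0.06 over all genes, with 6 below 0. Against WT 3 were lower: *Ddi2* by -2.44 (limma, adjusted p = 0.0135), *Fbxo7* by -1.54 (limma, adjusted p = 0.0348) and *Adrm1* by -1.21 (limma, adjusted p = 0.0444). The median over the 23 was then -0.42, beside -0.04 over all genes, against the same WT mice. Of all genes 4.30% were called lower in this comparison.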

How the data were processed

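RNA of 27 single myofibers was amplified in 18 cycles and hybridized in 1 colour to Agilent mouse 8x60K arrays. The authors deposited scanner files with the spot intensity (background-subtracted, detrended, not scaled between arrays; Agilent Feature Extraction 10.7.3.1 per the file headers), other columns holding quality flags, and a value table whose linear intensity values were made comparable between arrays. The log2 of the deposited intensity was taken and the 75th percentile of each array subtracted. Spots not found, not well above background or uneven were left out, repeated spots averaged, probes without values on 75% or more of the arrays dropped, and the brightest probe used for a gene. Myofibers of a mouse were averaged, since the methods' SAM test takes them as independent, and limma 3.58.1 (R 4.3.3) compared the 3 groups in 1 model, with Benjamini-Hochberg adjustment over all genes; the script was tested on simulated data. Catalytic pairs were tested by exact permutation over mice. The members and gene lists were chosen with earlier results of these data known, and 1 listed gene is not reported here. Named were the genes called, the catalytic pairs and the extremes of each role. The alternatives were other scalings, filters, replicates, blocks and samples left out. Figures were drawn with matplotlib 3.10.9 (Python 3.11.15).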

Additional observations from a re-analysis of the deposited data

Results flagged for a closer look

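Chance sets a sample apart in about 1 of 20 groups by the test used here. It compared the gap between the most extreme myofiber and its neighbour with the range of the group. A myofiber was set apart in 7 of the 37 groups tested. The 12 Smn1deltaSKM myofibers were too many to be tested, except for *Psmg1*, which was usable on 10 of them. WT myofiber 8 was the lowest WT myofiber by such a gap for *Psmb10* (0.87, the next at 1.80), *Psmb6* (5.03, the next at 5.99), *Psmb7* (4.20, the next at 5.28) and *Psmc4* (3.25, the next at 3.93). It was also the lowest for the mean of the proteasome genes (3.19, the next at 3.93). WT myofiber 2 was the highest WT myofiber for *Psmd8* (5.87, the next at 5.04) and the lowest for *Psmg1* (0.34, the next at 1.53).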

How the results depend on the processing

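The differences of the 6 called genes from WT stayed below 0 under each of the 22 alternatives, but the number of calls did not hold. Of the 45 proteasome genes, 6 were called in Smn1deltaSKM against WT. The count was 0 after quantile normalization (5.17% of all genes called) and 0 after normexp with quantile normalization (3.84%). With the authors' value table it was 1 (2.22%, against 16.0% of all genes). It was 26 with myofibers as replicates (57.8%, against 54.5% of all genes) and 10 with the mouse as a random block (22.2%, against 35.5%). Without the 3 Smn1deltaSKM myofibers of scan day 1 it was 10 (22.2%, against 28.6%). At an adjusted p under 0.001 it was 0, as over all genes. Without WT myofiber 8, an alternative chosen after seeing the data, it was 11 (24.4%, against 26.5%). Leaving out 1 mouse at a time gave 0 (without either WT mouse) to 20 (without Smn1deltaSKM mouse 1, 44.4%, against 43.5% of all genes). The median of -0.52 became 6e-04 (quantile) and 0.0553 (normexp with quantile).

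In Smn1deltaSKM+AFS against WT 4 were called; the count was 0 after quantile normalization, normexp with quantile normalization, with no filter and at an adjusted p under 0.001, 1 with the authors' value table, 2 when centred on probes usable everywhere, 2 with the slide as a random block, 19 with myofibers as replicates, 9 with the mouse as a random block, 9 with only both groups compared in the model, and 0 to 13 without 1 mouse at a time. The median of -0.43 in this comparison became -0.15 (quantile) and -0.13 (normexp with quantile). In Smn1deltaSKM+AFS against Smn1deltaSKM no alternative called a proteasome gene, and the median of 0.05 became -0.22 (quantile), -0.23 (normexp with quantile) and -0.31 (within scan day 1).

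Of the probes, 6 were called in Smn1deltaSKM and 3 in Smn1deltaSKM+AFS against WT; the counts were 0 and 0 after quantile normalization, 2 and 0 with the authors' value table, and 0 to 25 and 0 to 15 without 1 mouse at a time. Turned in sign were *Psmb5* (6e-04 after quantile, 0.0553 after normexp with quantile), *Psmb7* (-0.28 without the scan day 1 myofibers, -0.15 without WT myofiber 8, -0.36 to 0.37 without 1 mouse at a time) and *Psmd9* (0.20 after normexp with quantile). The mouse numbers share only a number: deviations of same-numbered mice correlated between -0.06 and 0.31. With the number as a replicate block 5 proteasome genes were called in Smn1deltaSKM (11.1%, against 14.3% of all genes) and 2 in Smn1deltaSKM+AFS (4.44%, against 5.64%) against WT. The cause of these changes was not tested. WT arrays share no slide or scan day with other groups, 2 or 3 mice a group limit the precision, and *Psmb8*, *Psmb9* and *Psmb11* lay near background.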
